A study of Mus musculus with 13 samples.

Results

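The genes examined here encode the ERBB receptors (Erbb2, Erbb3, Erbb4 and Egfr), the receptor-bound adaptor Grb7, and inhibitors of these receptors or their relatives (Lrig1, Lrig3 and Errfi1). They were taken by symbol from the deposited tables, which held all 8 among 23845 genes. Enough reads for a test were found for 7 of the 8, within 13058 genes tested in all. RNA was sequenced from 13 cell lines grown out of mammary tumours of FVBN/J mice, in a study whose title concerns HER2-driven breast cancer and the JNK pathway. The genotype label reads wild type for 6 lines (WT) and JNK knockout for 7 (knockout), and each library is a separate line. All lines shared the same culture, first on collagen I in low serum and then on plain dishes with serum, EGF and insulin, so a ligand of Egfr was present in both groups. The labels name neither the deleted JNK genes nor the promoter, the form of HER2 or the Cre used, and they give no ages, passages, clonal origin or pairing of lines. Nor do they say how reads of an introduced HER2 gene would be counted. WT replicates 4 and 5 have titles with a common number, and lines from 1 animal would make p-values measure less than the spread between animals.

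ERBB receptors are tyrosine kinases of the cell surface that pair with each other when an EGF-family ligand binds. ErbB2 has no known ligand of its own and acts as the preferred partner of the others. ErbB3 binds neuregulins, has a weak kinase domain and relies on its partner's kinase to pass signals on to PI3 kinase. In mammary epithelium and in HER2-positive tumours the pair of ErbB2 and ErbB3 is known as a strong driver of growth. LRIG1 is a transmembrane protein that promotes the degradation of ERBB receptors. LRIG3 belongs to the same family and is reported to oppose LRIG1 in some settings. The product of Errfi1, known as MIG6, binds the kinase domain of EGFR and ErbB2 and blocks it.

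Libraries held between 3.83e+07 and 4.67e+07 expected counts, so depth differed little. The genotype labels were checked first. Mapk8, the gene for JNK1, lay between 23.95 and 37.3 CPM (counts scaled to library size by TMM) in WT lines and between 4.33 and 8.33 CPM in knockout lines. Mapk9, the gene for JNK2, lay between 55.01 and 73.1 CPM in WT and between 8.90 and 24.7 CPM in knockout lines. Neither gene overlapped between the groups. Luminal and basal epithelial markers were found in each line, at different levels. By the same test as below, 2 of 6 luminal markers (Krt8 and Krt18) and 2 of 5 tested fibroblast markers (Col1a1 and Col1a2) were lower, and 5 of 5 basal markers higher, in knockout lines. Over all genes tested, 8.51% passed. The other tested fibroblast markers did not pass and were mixed, with log2 fold changes of -1.32 (Col3a1), -0.11 (Pdgfra) and 1.56 (Dcn). Of the luminal markers that did not pass, Krt19 was at 0.19 and the others were between -1.04 and -0.59. The summed TPM (transcript abundance scaled for length and depth) of 6 luminal markers ranged from 6188 to 8258 in WT and from 1168 to 3904 in knockout lines, and that of 5 basal markers from 66.9 to 313 and from 577 to 21865. Markers of fibroblasts summed to between 4.23 and 140 TPM in WT lines and to between 0.73 and 15 TPM in knockout lines, with 14.6 TPM in replicate 2. Those of immune cells summed to at most 33.4 TPM. Endothelial markers reached at most 1.11 TPM and adipocyte markers at most 3.44 TPM, with Plin1 and Cidec at 0 in all lines. Knockout replicate 2 was both the lowest line in the luminal and the highest in the basal sum. These shifts move with the genotype, and their part in the receptor results was not tested. In such bulk libraries, fewer cells of a type and less RNA per cell cannot be told apart.

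Of the 7 genes tested, 1 was higher (Lrig3) and 1 lower (Lrig1) in knockout lines by edgeR's quasi-likelihood test at a Benjamini-Hochberg adjusted p under 0.05. Over all 13058 genes, 8.51% passed that threshold, 4.33% as higher and 4.17% as lower. None of the receptor genes passed. The median log2 fold change, knockout minus WT, was -0.11 over the 7 genes and 0.01 over all genes tested. For none of the 7 were the groups fully apart in CPM, which held for 4.05% of all genes tested. The estimates and their intervals differed widely in width. That of Lrig1 was the narrowest, with an SE of 0.20, and that of Erbb3 the widest, with an SE of 0.55.

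**Figure D1:**
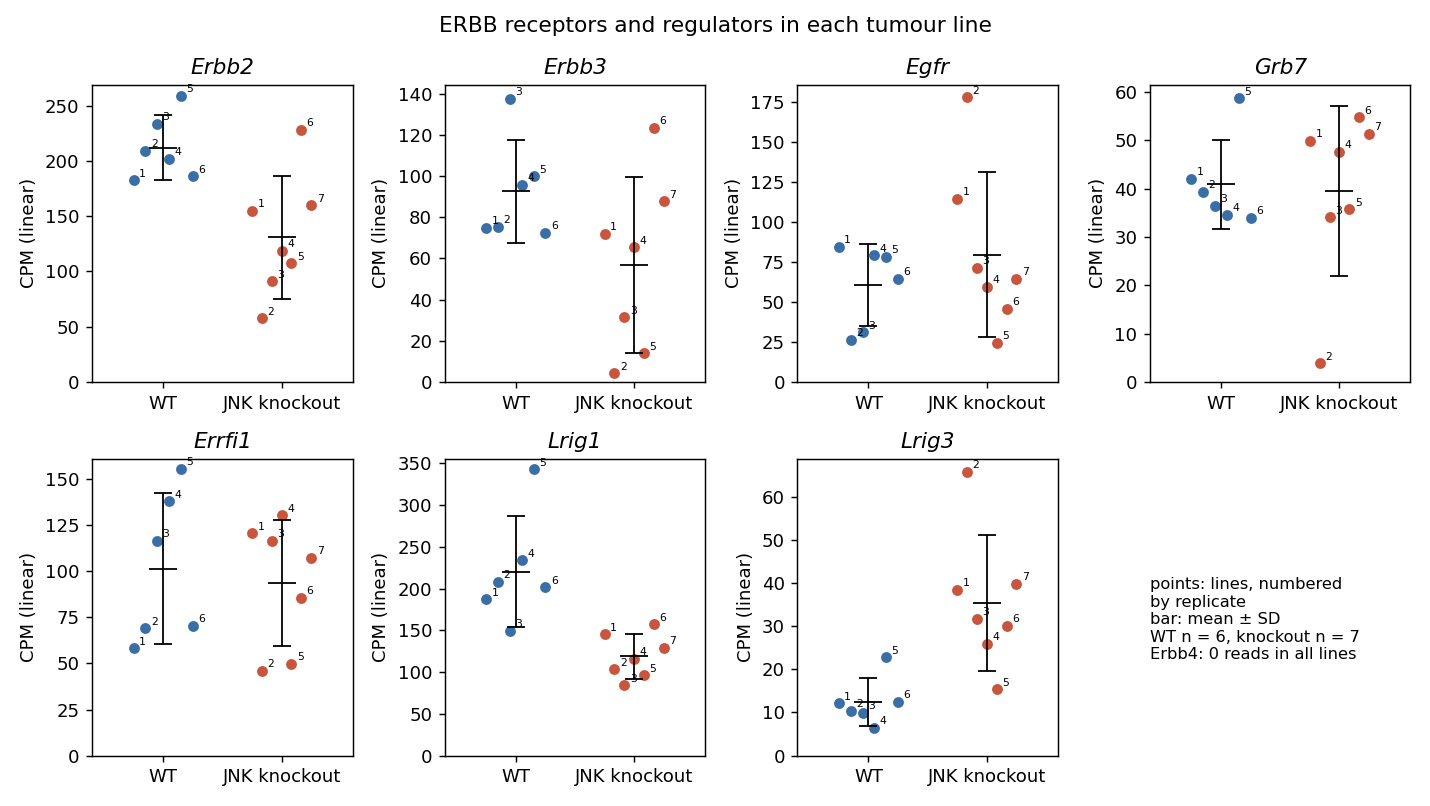
CPM on a linear axis in each WT line (blue, n = 6) and each JNK knockout line (red, n = 7) for the 7 genes with reads, with points numbered by replicate and bars for mean ± SD. Lrig1 is lower in the knockout lines apart from replicate 6 at 157 CPM, Lrig3 is higher apart from replicate 5 at 15.4 CPM, and knockout replicate 2 has the lowest Erbb2, Erbb3 and Grb7.

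**Figure D2:**
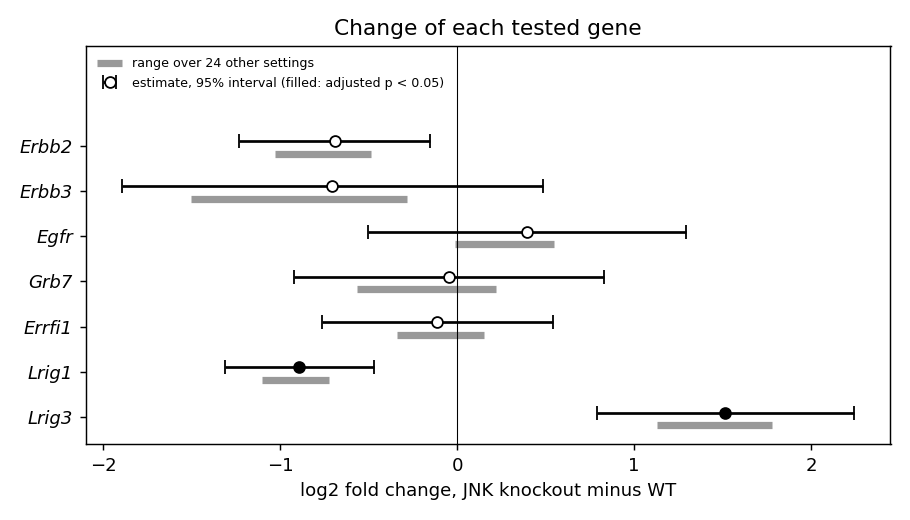
Log2 fold change of each tested gene, knockout minus WT, with its 95% interval (filled where adjusted p is under 0.05) and, in grey, its range over 24 other settings. The intervals of Lrig1 and Lrig3 lie on opposite sides of 0 at -1.31 to -0.47 and 0.79 to 2.24, as do their grey ranges.

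Lrig1 (chromosome 6, 94604529 to 94700298, GRCm38) was on average the most abundant of the inhibitors in WT lines. In TPM, WT replicate 3 held less Lrig1 than Errfi1 (50.8 against 67.3). Lrig1 levels in WT replicates 1 to 6 were 187, 208, 149, 234, 343 and 201 CPM. Knockout replicates 1 to 7 held 145, 103, 84.2, 116, 96.3, 157 and 129 CPM. Each knockout line but replicate 6 was below every WT line, and the overlap came from WT replicate 3, the lowest of its group. The mean was 220 ± 66.1 CPM for WT (SD, n = 6) against 119 ± 26.6 CPM for knockout (SD, n = 7). This 1.86-fold decrease passed the test (log2 fold change -0.89, SE 0.20, edgeR adjusted p = 0.016). Lrig1 is a gene whose protein lowers receptor levels, and its level per transcript length overlapped that of Erbb2 in WT lines, at 81.7 ± 26.9 against 77.6 ± 11.4 TPM (SD, n = 6). Annotated Slc25a26 overlaps the end of Lrig1, and without a known strand setting their shared reads cannot be told apart.

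Lrig3 (chromosome 10, 125966219 to 126015359) went the other way. WT replicates 1 to 6 held 12.1, 10.4, 9.86, 6.38, 22.8 and 12.5 CPM. Knockout replicates 1 to 7 held 38.5, 65.8, 31.6, 25.95, 15.4, 30.1 and 39.8 CPM. All knockout lines but replicate 5 were above every WT line, and WT replicate 5 was the highest of its group. The means were 12.3 ± 5.56 CPM for WT (SD, n = 6) against 35.3 ± 15.7 CPM for knockout (SD, n = 7). This 2.86-fold increase passed the test (log2 fold change 1.52, SE 0.34, edgeR adjusted p = 0.017). Both calls held in all 13 fits that left out 1 line and in the 11 other settings tried. In those 13 fits the log2 fold change of Lrig3 ran from 1.29 without knockout replicate 2 to 1.78 without WT replicate 5, and that of Lrig1 from -0.98 without WT replicate 3 to -0.72 without WT replicate 5. The third family gene, Lrig2, had a log2 fold change of -0.26 (SE 0.24, edgeR adjusted p = 0.51, 95% interval -0.77 to 0.25).

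Set against each other within a line, the 2 LRIG genes separated the groups. The ratio of Lrig1 to Lrig3 in TPM was 12.5, 16.2, 12.2, 29.6, 12.1 and 12.96 in WT replicates 1 to 6. It was 3.04, 1.27, 2.15, 3.60, 5.06, 4.21 and 2.61 in knockout replicates 1 to 7. No knockout line reached the lowest WT ratio, since knockout replicates 5 and 6, the exceptions for 1 gene, were not exceptions for the other. This ratio was formed after the values of both genes were seen and is given without a test.

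**Figure D3:**
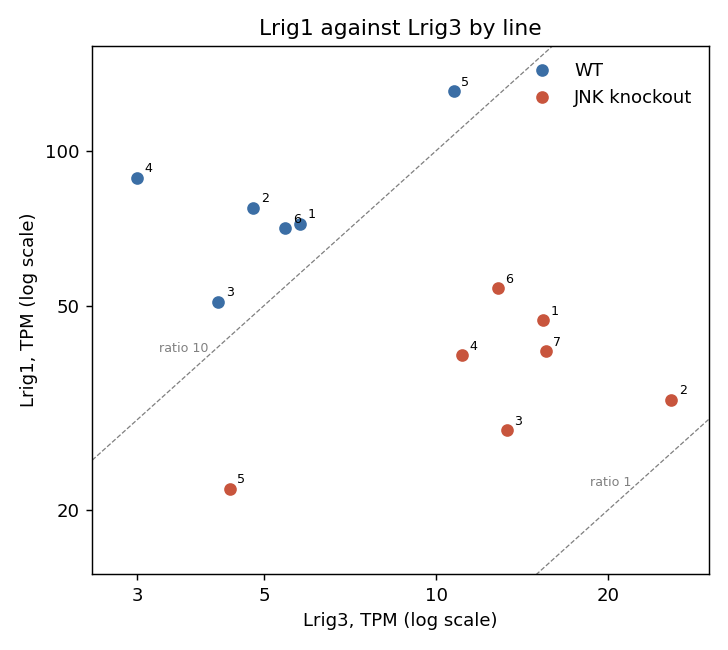
TPM of Lrig1 against TPM of Lrig3 in each line, both axes logarithmic, WT in blue and JNK knockout in red, numbered by replicate, with dashed lines at ratios of 1 and 10. All WT lines lie above the ratio of 10 (12.1 to 29.6) and all knockout lines below it (1.27 to 5.06).

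The promoters of the changed LRIG genes are shown because JNK acts on transcription through AP-1 and ATF factors, whose sites can be looked for by letters. RefSeq windows of 250 bases before the start (GRCm38.p6) were on hand for 6 of the 8 genes, with 7 windows in all, and Erbb3 and Grb7 had none. The AP-1 letters TGACTCA, which read TGAGTCA on the opposite strand, were in 0 of the 7 windows and in 4.46% of 32851 windows of all genes. The related cyclic AMP response element TGACGTCA, the same on both strands, was in 1 of the 7, at the downstream start of Errfi1, and in 1.55% of all windows. The AP-2 letters GCCNNNGGC, also the same on both strands, were in 1 of the 7, that of Lrig1, and in 13.7% of all windows. The motifs do not contain one another. These are matches of letters in short windows and show no binding. The stretches of the Lrig1, Lrig3 and downstream Errfi1 windows that lie outside annotated exons are, 5′ to 3′, with the match to TGACGTCA in capitals:
Lrig1, chr6:94700299-94700395, minus strand: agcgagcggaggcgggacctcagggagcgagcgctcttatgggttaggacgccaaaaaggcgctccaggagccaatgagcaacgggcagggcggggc
Lrig3, chr10:125965969-125966167, plus strand: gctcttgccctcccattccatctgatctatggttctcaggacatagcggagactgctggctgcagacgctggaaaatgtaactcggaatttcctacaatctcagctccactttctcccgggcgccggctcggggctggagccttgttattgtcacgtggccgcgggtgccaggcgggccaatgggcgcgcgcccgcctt
Errfi1, chr4:150854950-150855069, plus strand: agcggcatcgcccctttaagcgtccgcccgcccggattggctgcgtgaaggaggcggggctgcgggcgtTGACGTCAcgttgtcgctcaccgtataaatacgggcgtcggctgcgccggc
The AP-2 match of Lrig1 lies closer to its start than the stretch printed.

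Among the receptors, Erbb2 (chromosome 11, 98412484 to 98437716), the gene for HER2, was lower in most knockout lines without passing the test. Its levels in WT replicates 1 to 6 were 183, 209, 234, 202, 259 and 186 CPM. Knockout replicates 1 to 7 held 155, 57.5, 91.2, 119, 107, 228 and 160 CPM. Apart from replicate 6 these were all under the lowest WT value. The log2 fold change was -0.69 (SE 0.25, edgeR adjusted p = 0.10), and its 95% interval of -1.23 to -0.15 spans knockout levels between 0.43 and 0.90 of WT. Without knockout replicate 6 the gene did pass (log2 fold change -0.88, adjusted p = 0.028). It also passed with limma on log2(TPM + 1), at -1.01 (adjusted p = 0.038), where the median over all genes was -0.19. The spread was larger among knockout lines, with an SD of log2 CPM of 0.64 against 0.19 in WT.

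Erbb3 (chromosome 10, 128567523 to 128589635), the partner receptor, varied most of the tested genes among knockout lines, though not among WT lines. Its levels in WT replicates 1 to 6 were 74.9, 75.2, 138, 95.7, 99.9 and 72.3 CPM. Knockout replicates 1 to 7 held 71.9, 4.11, 31.4, 65.3, 13.9, 123 and 87.6 CPM. Knockout replicates 2, 3 and 5 had less than any other line, while replicates 6 and 7 were inside the WT range and replicates 1 and 4 just under it. The SD of log2 CPM was 1.74 in knockout and 0.36 in WT lines, and 1.15 in knockout lines without replicate 2. The log2 fold change of -0.71 (SE 0.55) did not pass (edgeR adjusted p = 0.44), with a 95% interval of -1.89 to 0.48. Its size depended on the method and the lines. It was -1.26 with limma-voom, -1.38 with limma on log2(TPM + 1), -1.51 with limma on log2(TPM + 0.1) and -1.01 without knockout replicate 6, with adjusted p from 0.15 to 0.26. Without knockout replicate 2 the log2 fold change was -0.50 (adjusted p = 0.45). Without knockout replicates 2 and 5 together, a choice made after seeing the data, it was -0.28 (adjusted p = 0.59).

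Egfr (chromosome 11, 16752203 to 16913907), the receptor for the EGF in the medium, differed among lines of both groups. In WT replicates 1 to 6 it reached 84.5, 26.3, 30.9, 79.0, 78.2 and 64.6 CPM. Knockout replicates 1 to 7 held 114, 178, 71.2, 59.3, 24.6, 45.6 and 64.3 CPM. WT replicates 2 and 3 and knockout replicate 5 were low, knockout replicates 1 and 2 were above every WT line, and the rest overlapped. The log2 fold change was 0.39 (SE 0.42, edgeR adjusted p = 0.58, 95% interval -0.51 to 1.29), and it was 0.06 without knockout replicate 2. With limma on log2(TPM + 1) it was -0.00400, so no direction can be given. The deposited tables combine 2 RefSeq transcripts under this symbol. Erbb4 (chromosome 1, 68031884 to 69108576), a neuregulin receptor of differentiating mammary epithelium, had 0 reads in all 13 lines. A count of 0 allows up to 3 reads, or at most 0.0783 CPM in the shallowest line, which covers counting error only.

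Receptor transcripts were also added up within each line. The summed TPM of the receptor genes was 136, 122, 149, 151, 175 and 118 in WT replicates 1 to 6. In knockout replicates 1 to 7 it was 114, 69.9, 66.0, 87.9, 33.9, 145 and 104. Only knockout replicate 6 was inside the WT range in TPM. In CPM, where WT lines summed to between 311 and 437, replicates 1 (341) and 7 (312) were inside it as well as replicate 6 (397). Erbb2 made up between 50.4% and 63.3% of the TPM sum in WT lines and between 25.9% and 72.0% in knockout lines. Egfr made up between 7.25% and 21.9% in WT and between 9.85% and 71.8% in knockout lines. Knockout replicate 2 was the single line with more Egfr than Erbb2 (50.2 against 18.1 TPM), and with Erbb3 at 2.33% of the sum. Knockout replicate 5 had the least of all receptors together, with 72.0% of the TPM sum from Erbb2 and 11.7% from Erbb3. Its sum was 33.9 TPM against a WT mean of 142 TPM, and 146 CPM against a WT mean of 365 CPM, so its size relative to WT depended on the unit. In the other 5 knockout lines the share of Erbb3 was between 20.2% and 36.5%, close to the WT range of 26.6% to 39.4%. Shares are descriptions of single lines and were not tested.

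**Figure D4:**
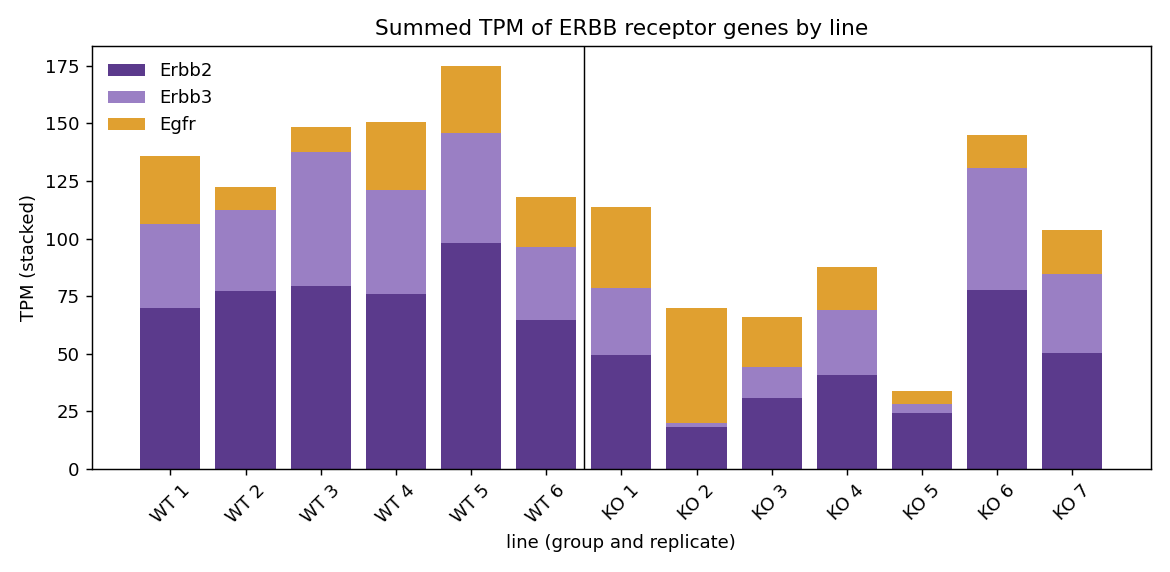
Stacked TPM of Erbb2, Erbb3 and Egfr in each line (Erbb4 is at 0), WT lines on the left and JNK knockout (KO) lines on the right of the vertical line. Bars reach 118 to 175 TPM in WT lines, and 33.9 to 114 TPM in knockout lines other than replicate 6 at 145 TPM, and the bar of knockout replicate 2 is mostly Egfr.

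Grb7 (chromosome 11, 98446834 to 98455373) encodes an SH2-domain adaptor that binds phosphorylated ErbB2, and it lies next to Erbb2 in mouse and human. WT replicates 1 to 6 held 42.1, 39.4, 36.5, 34.6, 58.8 and 34.0 CPM, and knockout replicates 1 to 7 held 49.9, 3.85, 34.1, 47.6, 35.8, 54.8 and 51.3 CPM. Knockout replicate 2 was far below the rest, whose values overlapped. The log2 fold change was -0.05 (SE 0.41, edgeR adjusted p = 0.96, 95% interval -0.92 to 0.83) but 0.16 without that line and 0.09 without WT replicate 5. With limma-voom it was -0.33, with limma on log2(TPM + 1) -0.51 and on log2(TPM + 0.1) -0.57, none of which passed, so no direction can be given. The Mien1 gene of RefSeq spans Grb7 and the last bases of Erbb2, and reads there may not be told apart without strand.

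Errfi1 (chromosome 4, 150853796 to 150868889), the gene for the kinase inhibitor MIG6, did not differ between the groups beyond the spread. WT replicates 1 to 6 held 58.2, 68.9, 116, 138, 155 and 70.3 CPM, and knockout replicates 1 to 7 held 121, 45.8, 116, 130, 49.9, 85.5 and 107 CPM. Knockout replicates 2 and 5 were lower than any WT line and the other knockout lines fell inside the WT range. The log2 fold change was -0.11 (SE 0.30, edgeR adjusted p = 0.85, 95% interval -0.77 to 0.54), and it was above 0 in 4 of the 24 other settings.

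In order of TPM, WT lines held Lrig1 (81.7 ± 26.9), Erbb2 (77.6 ± 11.4), Errfi1 (63.3 ± 26.5), Erbb3 (42.4 ± 10.0), Grb7 (33.0 ± 8.46), Egfr (21.8 ± 9.39) and Lrig3 (5.66 ± 2.69). Neighbours in this order overlapped between lines, least of all Lrig3, whose highest WT value of 10.8 TPM (replicate 5) met only the lowest Egfr values, 9.89 and 10.8 TPM in WT replicates 2 and 3. Knockout lines held Errfi1 (51.6 ± 21.9), Erbb2 (41.7 ± 20.1), Lrig1 (37.9 ± 10.9), Grb7 (27.7 ± 13.5), Egfr (23.5 ± 14.7), Erbb3 (23.4 ± 18.3) and Lrig3 (14.1 ± 6.43), each overlapping the next. These are levels per transcript length, as mean ± SD over 6 and 7 lines.

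Apart from genotype, some of these genes varied together over the pooled lines. Each line's log2 CPM was taken as its distance from the mean of its own group, and the 21 pairs of the 7 genes were correlated over the 13 lines. Erbb2 and Erbb3 had a Pearson r of 0.90, Erbb3 and Grb7 of 0.86, and Erbb2 and Grb7 of 0.83. Without knockout replicate 2 these were 0.79, 0.63 and 0.75 over 12 lines. Knockout lines weigh more in the r over 13 lines, since their SD of log2 CPM was larger. It was 1.74 against 0.36 in WT for Erbb3 and 1.36 against 0.29 for Grb7. In WT replicate 3 Erbb3 was 0.61 above its group mean and Grb7 0.14 below. No r was taken within WT lines alone, so joint variation there is not shown. Egfr went against Grb7 (r = -0.45) and Erbb2 (r = -0.38) only with that line, and without it r was 0.31 and 0.02. Likewise Grb7 and Lrig3 had r = -0.35 with and 0.71 without it, and Grb7 and Lrig1 0.37 and 0.83. The values share each library's scaling, and r is a description here. Knockout replicate 2 was the lowest of its group in Erbb2, Erbb3, Grb7 and Errfi1 and the highest in Egfr and Lrig3. It also held 40.8 CPM of Epcam and 92.3 CPM of Cdh1, 2 of the 6 luminal markers, which were at least 266 and 311 CPM in the other knockout lines. Its sum of the 5 basal epithelial markers, 21865 TPM, was the highest of all lines.

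**Figure D5:**
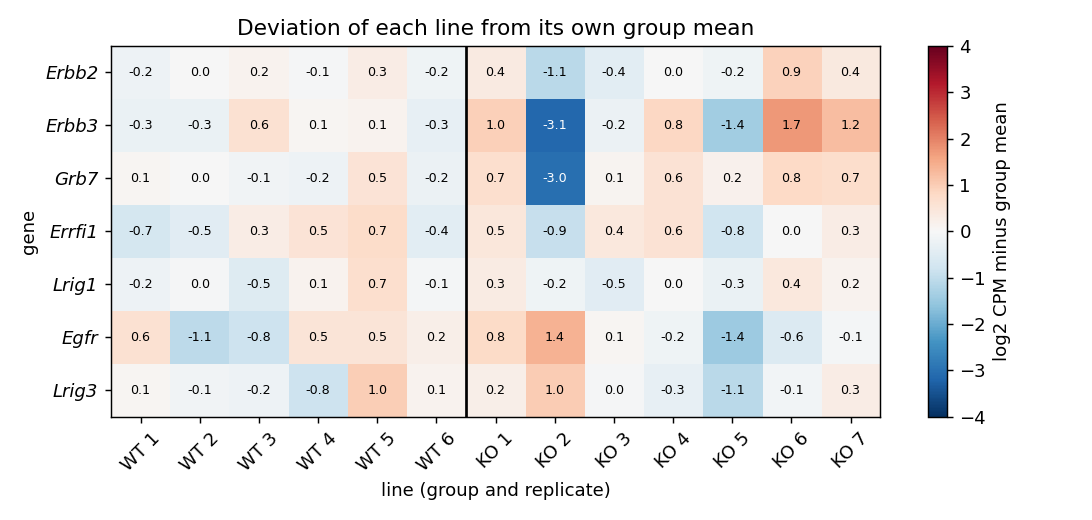
Log2 CPM of each tested gene in each line minus the mean of that line's group, with WT and JNK knockout (KO) lines on either side of the vertical line and red for above, blue for below the mean. The strongest deviations are those of Erbb3 (-3.15) and Grb7 (-3.02) in knockout replicate 2, where Egfr (1.40) and Lrig3 (1.02) deviate upwards.

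The genes whose deviations were most like those of each member were sought among 10651 others with a mean of at least 5 CPM, over the same 13 lines. As these genes were picked as the highest of so many, their r is high by selection and was not tested. For Erbb2 they included Tmem144 (r = 0.94) and Mknk2 (0.93), and for Erbb3 they were Rab11fip4, Mknk2 and Shroom2 (0.93 each). Mknk2, which encodes a kinase of the translation factor eIF4E, was near both. Erbb2 and Erbb3 had r = 0.90 with each other, so nearness to both is no separate observation. Mknk2 held from 136 to 195 CPM in WT and from 107 to 263 CPM in knockout lines, lowest in knockout replicate 2 and highest in replicate 6. For Egfr they were Rapgef3, C77080 and Ptpn23 (0.93 each), with r between 0.90 and 0.93 without knockout replicate 2. Rapgef3, a cyclic AMP-activated exchange factor for Rap proteins, was itself higher in knockout lines (log2 fold change 2.79, edgeR adjusted p = 0.0056). For Grb7 they were Marveld2, 4930412O13Rik and Ano9 (0.97 to 0.98), which fell to between 0.57 and 0.66 without knockout replicate 2. Marveld2 encodes the tight junction protein tricellulin and was at 3.41 CPM in that line. Over the 13 lines likeness was lower for Lrig1 (Repin1, Crebl2 and Ypel2, 0.84 to 0.87), Lrig3 (Eif4b, Fam160b2 and Zhx2, 0.83 to 0.85) and Errfi1 (Plekhh2, Insig1 and Asah2, 0.80 to 0.83). Without knockout replicate 2 this order did not hold. The same genes then had r of 0.84 to 0.88 for Lrig1, 0.76 to 0.85 for Lrig3 and 0.74 to 0.86 for Errfi1. For Erbb2, Tmem144 and Mknk2 fell to 0.87 and 0.84, and the genes of Erbb3 fell to between 0.81 and 0.84.

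The other genes of the pathway were read from lists of ligands, shedding enzymes, adaptors, turnover factors and transcription factors. Of 9 tested ligand genes, 0 were higher and 1 was lower (median log2 fold change -0.25). With DESeq2, limma-voom, limma on log2(TPM + 1) or without WT replicate 1, 1 ligand gene was higher, and with limma-voom or limma on log2(TPM + 0.1) 0 were lower. The lower ligand gene of the edgeR test was Epgn, the gene for epigen, a ligand of EGFR, at 19.7 ± 12.5 CPM for WT against 3.61 ± 2.86 CPM for knockout (log2 fold change -2.45, SE 0.67, edgeR adjusted p = 0.039). It was called in 9 of the 24 other settings. WT replicate 3, at 1.45 CPM, was inside the knockout range, and the call held in 2 of the 13 fits lacking a line, those without WT replicate 3 or knockout replicate 6. Ereg, the gene for epiregulin, lay between 2.34 and 48.5 CPM for WT and between 44.6 and 92.9 CPM for knockout (95% interval of the log2 fold change 0.45 to 2.75, edgeR adjusted p = 0.079). Areg, for amphiregulin, was on average the most abundant ligand gene, at 238 TPM in WT and 170 TPM in knockout lines (edgeR adjusted p = 0.81). It ran from 15.5 to 494 TPM in WT and from 93.4 to 233 TPM in knockout lines. In WT replicates 3 and 5 other ligand genes were above it. Of the neuregulin genes, Nrg1 averaged 12.0 TPM in WT lines and 12.9 TPM in knockout lines, where it ran from 1.17 TPM to 37.9 TPM in replicate 2. Nrg2 averaged 5.67 TPM for WT and 11.01 TPM for knockout (log2 fold change 1.18, SE 0.62, edgeR adjusted p = 0.25). Nrg4 was at most 0.38 TPM, and Nrg3 had 0 reads.

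Among 10 genes of ligand shedding, 1 was higher and 1 lower (median 0.00). Timp3, an inhibitor of ADAM17 and other metalloproteinases, averaged 166 ± 117 CPM for WT against 1567 ± 883 CPM for knockout, 9.45-fold higher (log2 fold change 3.24, SE 0.47, edgeR adjusted p = 0.0025). All 7 knockout lines, from 821 CPM upwards, were above the highest WT line at 387 CPM. Adam17, the main sheddase of several EGFR ligands, was 159 ± 20.9 CPM for WT against 100.3 ± 28.4 CPM for knockout (log2 fold change -0.66, SE 0.18, edgeR adjusted p = 0.038). The call held in 4 of the 13 fits lacking a line, those without WT replicate 6 or knockout replicate 1, 6 or 7.

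Of 39 tested adaptor and effector genes, 0 were higher and 1 was lower (median -0.13). The lower gene was Nck2, an SH2 and SH3 adaptor, at 147 ± 63.4 CPM for WT against 68.4 ± 10.3 CPM for knockout (log2 fold change -1.11, SE 0.22, edgeR adjusted p = 0.011), with no overlap between the groups. Grb10 had the largest estimate of this list and a wide interval (log2 fold change -4.81, SE 1.57, 95% interval -8.20 to -1.42), and did not pass (edgeR adjusted p = 0.074). Of the PI3 kinase branch, Pik3ca (log2 fold change -0.13) and Akt1 (-0.24) did not pass. Of 27 genes of receptor turnover and restraint, 0 were higher and 2 lower (median -0.12). Ptprj, a receptor phosphatase that acts on EGFR, averaged 118 ± 25.4 CPM for WT against 44.2 ± 12.9 CPM for knockout, 2.66-fold lower (log2 fold change -1.41, SE 0.22, edgeR adjusted p = 0.0033), again without overlap. Itch, a ubiquitin ligase, was 139 ± 24.5 CPM for WT against 94.8 ± 19.1 CPM for knockout (edgeR adjusted p = 0.041). It passed in 3 of the 13 such fits, those without WT replicate 6 or knockout replicate 5 or 6. Of 13 transcription factors reported upstream of ERBB genes, 0 were higher and 1 was lower (median -0.23). Foxo1, a forkhead factor that PI3 kinase signalling keeps out of the nucleus, averaged 102 ± 60.5 CPM for WT against 39.9 ± 8.76 CPM for knockout (log2 fold change -1.35, SE 0.28, edgeR adjusted p = 0.013), with no overlap. Tfap2a, an AP-2 factor known to bind the human ERBB2 promoter, had a log2 fold change of -0.60 (edgeR adjusted p = 0.12). The share called within these lists ran from 2.56% (adaptors and effectors) to 20% (shedding, 2 of 10), against 8.51% of all genes, and nothing particular to a list is read from it. DESeq2 called 2 adaptor genes higher and 2 lower, and 2 shedding genes lower. Limma on either TPM scale called 2 shedding genes and 2 transcription factors lower. With WT replicates 4 and 5 summed to 1 line, the calls of Epgn, Adam17 and Itch were not made.

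Genes beside the members were read to see whether whole loci moved. Around Erbb2 and Grb7 on chromosome 11, 22 genes were listed and 15 tested, of which 1 was higher and 0 lower (median 0.23). That gene, Gsdma, which encodes a gasdermin of epidermis, had 3 reads among the WT lines together and 852 among the knockout lines, most in replicate 7 (14.0 CPM). Of the neighbours nearest to Erbb2, Pgap3 had a log2 fold change of -0.13 (95% interval -0.84 to 0.59), Mien1 of 0.08 (-0.57 to 0.72) and Stard3 of 0.57 (0.14 to 1.00), with edgeR adjusted p = 0.84, 0.90 and 0.089. Whether they differ from Erbb2, at -0.69, was not tested. With so few WT reads, Gsdma passed the filter on low counts through its knockout reads. Of the 13 fits lacking a line it passed in 7, those without a WT line or knockout replicate 4. It was called in all 7, which adds no separate support, and it is among the neighbours counted next. Over the 2 nearest tested genes on each side of the 7 tested members, 25 genes in all without the members themselves, 5 were higher and 0 lower (median 0.32). Over all genes tested, 4.33% were higher and 4.17% lower, with a median of 0.01. Erbb3 lay between 2 of them. Pa2g4, 1.59 kb away and named EBP1 for binding ErbB3, averaged 327 ± 87.2 CPM for WT against 525 ± 123 CPM for knockout (log2 fold change 0.68, edgeR adjusted p = 0.047, kept in 3 of 13 fits without 1 line, those without WT replicate 1 or knockout replicate 2 or 6). Rps26, a ribosomal protein gene whose reads can be shared with copies, was at log2 fold change 0.77 (edgeR adjusted p = 0.033, kept in 8 of 13 such fits, not in those without WT replicate 2, 4, 5 or 6 or knockout replicate 7). Beside Egfr, Sec61g, a subunit of the protein translocation channel 244 kb away, was at 0.67 (edgeR adjusted p = 0.027, kept in 8 of 13, not without WT replicate 1, 4, 5 or 6 or knockout replicate 1). Usp15, the nearest but one tested gene before Lrig3 at 2769 kb, was at 0.44 (edgeR adjusted p = 0.030, kept in 7 of 13, not without WT replicate 3, 4, 5 or 6 or knockout replicate 3 or 7). None of these 4 calls was made with WT replicates 4 and 5 summed, and those of Pa2g4 and Usp15 were not made with limma on either TPM scale. None of the 4 neighbours of Lrig1 was called, with log2 fold changes between -0.35 and 0.87, nor of the 4 around Erbb4, between -0.70 and 0.40.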

How the data were processed

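RNA of 13 lines (6 WT, 7 JNK knockout by the genotype label) was sequenced in paired ends on a NovaSeq instrument, per the labels' protocols. The authors deposited expected counts per gene and TPM, made with cutadapt and RSEM on mm10 (GRCm38), per the submitters' processing notes. The sources used here give no aligner, annotation release, strand setting or version. RSEM assigns ambiguous reads by a statistical model, which makes near-identical and overlapping genes uncertain.

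Expected counts were rounded, filtered with filterByExpr, scaled by TMM and tested across all genes with edgeR 4.0.16 (R 4.3.3) by its quasi-likelihood F test, with genotype as the only term and Benjamini-Hochberg adjustment (threshold 0.05). The SE, an approximation, was the size of the log2 fold change over the root of F, and gave the 95% intervals. CPM used TMM-scaled library sizes. The procedure was also run on simulated counts drawn independently from the fitted model. These held no outlying line and no lines from a shared animal, so they cannot speak to either, and no result here rests on them. Alternatives were DESeq2 1.42.0, limma-voom (limma 3.58.1), limma on log2(TPM + 1) and log2(TPM + 0.1), other scalings and filters, WT replicates 4 and 5 summed, and each line left out. Replicate numbers follow the order of the samples and pair nothing. Likeness used log2 CPM with a prior count of 2. Positions and promoter sequences are from RefSeq on GRCm38.p6, and exons from GENCODE M21. Erbin and Adgre1 were matched by the older symbols used in the tables.

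The genes and lists were chosen with earlier results of these data known. Genes were named by rule: the members, Mapk8 and Mapk9, up to 4 called genes per list with the lowest adjusted p, the 3 genes most like each member, the 2 nearest tested genes on each side, and markers. Ereg, Areg, the neuregulins, Lrig2, Tfap2a, Grb10, Pik3ca and Akt1 were named after their values were seen. A gene that the rule would name is not reported here.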

Additional observations from a re-analysis of the deposited data

Results flagged for a closer look

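In 14 of 50 groups of lines examined, 1 line stood apart from the others by Dixon's criterion. For independent groups of normal values, chance meets it in about 5%. Here CPM and shares were examined without logs, and the groups share lines and include genes named because they were called. The 14 are therefore not to be read as an excess over 5%. Of the members, Grb7 stood apart at 58.8 CPM in WT replicate 5 (next 42.1) and at 3.85 CPM in knockout replicate 2 (next 34.1). Of the receptor shares in TPM, Erbb3 stood apart at 39.4% in WT replicate 3 and Egfr at 71.8% in knockout replicate 2, where the nearest line had 33.2%. Mapk9 did so at 73.1 CPM in WT replicate 2 and at 8.90 CPM in knockout replicate 5. Timp3 did so at 387 CPM in WT replicate 2 and 3476 CPM in knockout replicate 6, and Itch at 186 CPM in WT replicate 2. WT replicate 3 stood apart in Nck2 (268 CPM), Foxo1 (223 CPM) and Sec61g (83.8 CPM). Knockout replicate 5 stood apart in Sec61g (140.3 CPM) and knockout replicate 7 in Gsdma (14.0 CPM). Nck2 and Foxo1 kept their calls in every fit that left out 1 line, that without WT replicate 3 included.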

How the results depend on the processing

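No paired analysis was possible because the labels number no lines across the groups. Lrig1 and Lrig3 were called in the same direction in all 24 alternatives (adjusted p up to 0.049 and 0.048), and Erbb3 kept its sign in all 24 without passing in any. Erbb2 passed at -1.01 and -1.03 with limma on log2(TPM + 1) and log2(TPM + 0.1), which made 2 members lower; leaving out 1 line gave -0.88 to -0.56 for Erbb2 and 1 to 2 members lower. The TPM scale moved the median of all genes by -0.20 and -0.23, and there Egfr turned to -0.00400 and -0.0120. Leaving out 1 line gave -0.13 to 0.16 for Grb7 and -0.23 to 0.05 for Errfi1 (0.0501 without WT replicate 5). Errfi1 was 0.0260 with WT replicates 4 and 5 summed. Without knockout replicates 2 and 5 together, added after seeing the data, Grb7 was 0.22 and Errfi1 0.15. Of all genes, 566 were higher and 545 lower. DESeq2 called 1130 and 977, limma on log2(TPM + 1) 260 and 998, and on log2(TPM + 0.1) 297 and 963. Leaving out 1 line gave 324 to 649 higher and 316 to 592 lower, with 374 higher without WT replicate 1, 375 without knockout replicate 3, 329 (316 lower) without knockout replicate 1 and 324 (326 lower) without knockout replicate 7. The cause of these differences was not tested. The biological coefficient of variation was 0.55, and at Erbb4's 0 reads depth sets the limit.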
